A study of Sus scrofa with 8 samples.

Results

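Integrins are receptors that hold cells to the matrix around them, and laminins, nidogens, perlecan and agrin build the basement membrane, the thin matrix sheet on which many of these receptors act. The 36 genes described here are those of the 21301 genes in the deposited matrices whose symbol names a numbered integrin alpha or beta subunit, a laminin alpha, beta or gamma chain, or FN1, VTN, NID1, NID2, HSPG2, AGRN or DAG1. They were chosen by symbol, with earlier results of these data known. LAMA2, LAMA5 and LAMB4 were not analysed here.

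The data are single-cell RNA counts of pig embryos in 8 libraries, 1 for each of the stages E16, E18, E21 and E28 (embryonic days 16, 18, 21 and 28) in Tibetan pigs (ZZ) and in Duroc × Tibetan crossbreds (DZ). Somites were taken at E16, E18 and E21, and at E28 the myotome, from which skeletal muscle forms. No library was treated, and each was a pool of 5 embryos of the same sow, so the spread between libraries holds no separate measure of the embryos in a pool. The 4 E16 and E18 libraries are called early and the 4 E21 and E28 libraries late, so the late group holds both the somites of E21 and the myotome of E28.

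A laminin is a trimer of an alpha, a beta and a gamma chain, and the alpha chain largely sets which receptor binds it. Nidogens, perlecan (HSPG2) and agrin (AGRN) link laminin to collagen IV and to the cell surface, while dystroglycan (DAG1) and the integrins that pair an alpha with a beta subunit anchor cells to the sheet. In the somite a laminin-rich sheet surrounds the epithelial somite and later bounds the myotome, fibronectin (FN1) fills the spaces around the somites, and muscle precursors exchange their integrins as they differentiate.

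After filtering, 74147 of 90688 barcodes were kept as cells, 5436 to 10956 per library, with 39852689 to 57568710 unique molecular identifiers (UMIs, counted RNA molecules) per library. E16-ZZ stood apart, with 39.2% of its barcodes over the mitochondrial limit against 1.05% to 9.15% in the others, and library pairs shared 13 to 38 cell barcodes. Levels are given as counts per 1000000 UMIs (CPM), a gene's UMIs over all UMIs of the summed cells of a library or class, with no further scaling. The tests, and so the fold changes, also use the TMM factors of edgeR, which correct for the RNA makeup and were 0.872 to 1.12 for whole libraries. A fold change can therefore differ from the ratio of the levels beside it. The levels mainly compare a gene between samples. Where genes are set beside each other, as in the shares of laminin chains, equal capture of the genes was not tested. 32767 cells (44.2%) were put into classes that each detect at least 3 marker genes of a type and more than of any other. Of these, 14247 detected exactly 3, and 22337 cells with 2 stayed out. None of the 36 genes was a marker. Among the 10 leading genes of every class, markers of the class itself (1 to 5) outnumbered those of any other class (0 to 1). Since the same markers set the gate, this does not test the names of the classes. A class is called X-like since markers alone name it.

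In whole libraries, 15 of the 34 members that passed the filter on low counts changed from the early to the late libraries, 10 up and 5 down, beside 34.3% of all 14337 genes tested. The laminin chains LAMA1 and LAMC1, the laminin receptor subunit ITGA3 and vitronectin (VTN) were among those that fell, and LAMA4, LAMB3, LAMC3, AGRN, ITGA4, ITGA7, ITGA9, ITGB5, ITGB6 and ITGB8 rose. The median change of the members was -0.04 on the log2 scale, against 0.03 over all genes tested. With library totals alone in place of TMM, the median over all genes was 0.20, and 16 members were called, 12 up and 4 down, with ITGA10 and ITGB1 gained as higher, VTN lost and no other change. The split of all calls was then 2981 up and 1541 down, against 2458 and 2454 with TMM. A value after ± on a log2 fold change is its standard error (SE). LAMA3, with 55 UMIs in all kept cells, and ITGB7, with 67, did not pass the filter. The mix of cells also moved, since 2.63% of early and 22.6% of late cells were fibroblast-like, 0.0374% and 6.05% myoblast-like, 5.19% and 0.124% epithelial-like and 7.35% and 0.0327% lateral mesoderm-like (means of 4 libraries). More cells of a class and more RNA of a gene per cell cannot be told apart in a whole-library level.

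**Figure D1:**
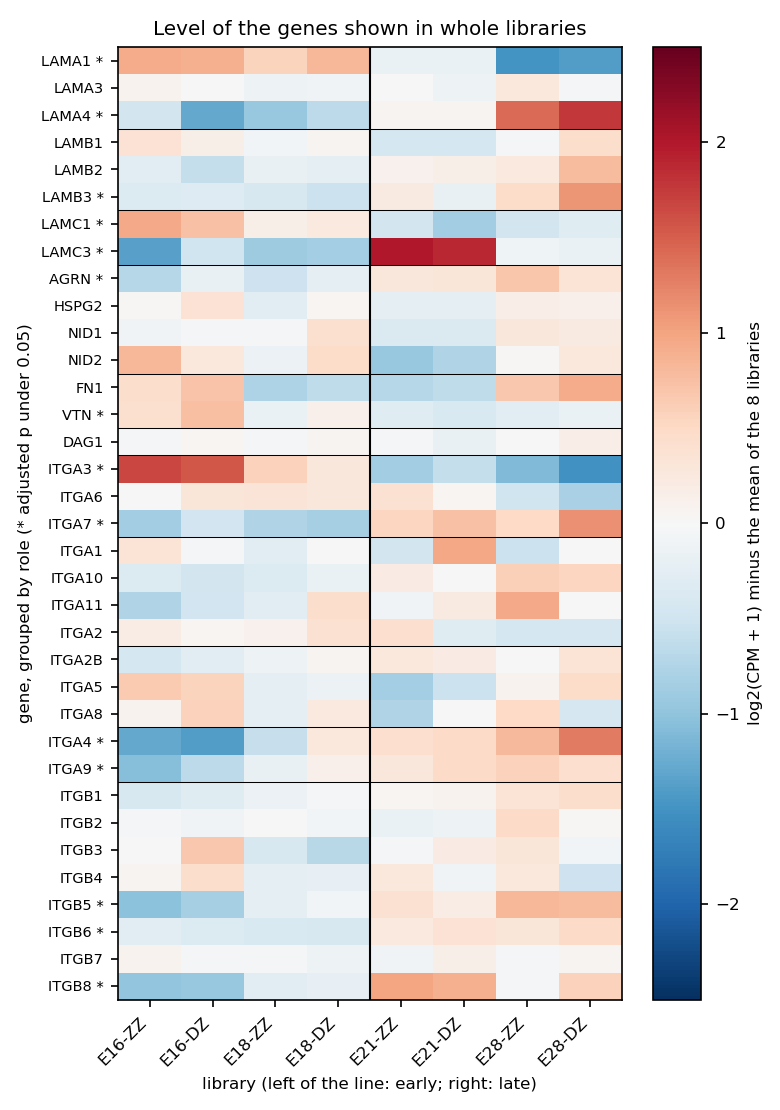
Each cell of the map is a gene (rows, grouped by role) in a library (columns), coloured by log2(CPM + 1) minus the gene's mean over the 8 libraries, red for above and blue for below. Starred genes passed the test of late against early libraries, and the vertical line parts the 4 early from the 4 late libraries. LAMA1, LAMC1 and ITGA3 are red at E16 and E18, ITGB5 and ITGA4 at E21 and E28 and LAMA4 at E28, while LAMC3 is red at E21 alone and FN1 at E16 and E28.

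The laminin alpha chain genes LAMA1 and LAMA4 moved in opposite directions. LAMA1 encodes the alpha chain of the laminin of early embryos, and was at 29.9 CPM in ZZ and 29.1 in DZ at E16, then 22.8 and 27.9 at E18, then 13.4 and 13.4 at E21, then 4.79 and 5.19 at E28. No late library reached an early one (log2 fold change -1.76 ± 0.39, edgeR adjusted p = 0.0125). LAMA4, the alpha chain of laminins of vessels, nerve and loose tissue, was at 13.9 CPM in ZZ and 7.34 in DZ at E16, then 9.57 and 12.0 at E18, then 20.2 and 20.4 at E21, then 53.2 and 68.7 at E28. Here also the groups did not overlap, and most of the rise was between E21 and E28 (log2 fold change 1.75 ± 0.45, edgeR adjusted p = 0.0208). Of the UMIs of LAMA1, LAMA3 and LAMA4 together, LAMA1 took 71.9% ± 5.17 (SD, n = 4) early and 23.6% ± 18.5 late, and LAMA4 27.8% ± 5.21 and 76.0% ± 18.4. Each shift had an exact two-sided permutation p of 0.0286, the smallest that 4 against 4 libraries allow, and an adjusted p of 0.0429 over the 3 chains. LAMA3 held at most 0.638% in any library, so the shares of LAMA1 and LAMA4 mirror each other and are 1 result. The adjusted p counts both of them, and so is no separate support for each. The share of LAMA1 was 39.7% and 39.6% at E21 and 8.21% and 7.02% at E28, so both breeds passed through the same order.

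**Figure D2:**
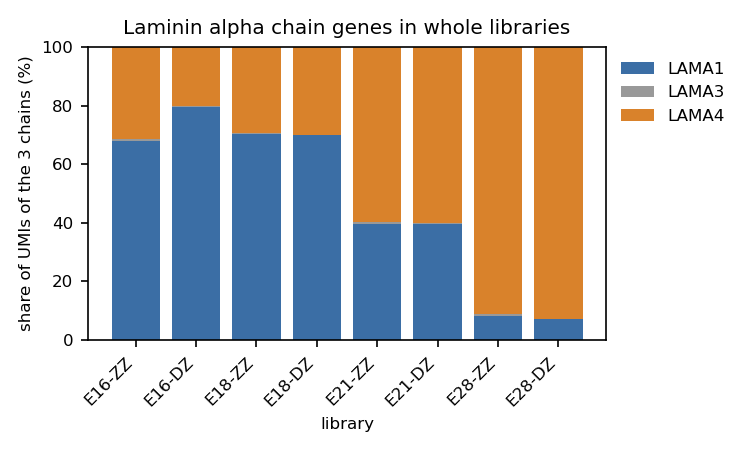
Stacked bars give, for each of the 8 libraries, the share in percent of the UMIs of LAMA1 (blue), LAMA3 (grey) and LAMA4 (orange) among the UMIs of these 3 genes. LAMA1 holds 68.0% to 79.5% in the early libraries and 7.02% to 39.7% in the late libraries, and LAMA3 stays under 1%.

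Among the gamma chains, LAMC1, the gamma chain of most laminins, was at 115 CPM in ZZ and 98. in DZ at E16, then 65.6 and 70.4 at E18, then 42.7 and 32.0 at E21, then 42.8 and 47.6 at E28. It was highest at E16 and lowest at E21, with no overlap between early and late libraries (log2 fold change -1.29 ± 0.24, edgeR adjusted p = 0.0071). In the RefSeq annotation of Sscrofa11.1, the build of the files, LAMC1 lies on chromosome 9 at 124283668 to 124405967. LAMC3, a gamma chain of nerve and other tissue laminins, was at 0.853 CPM in ZZ and 2.36 in DZ at E16, then 1.56 and 1.63 at E18, then 17.9 and 16.4 at E21, then 3.42 and 3.25 at E28. It was therefore high at E21 in both breeds and lower by E28, though still above every early library, a course that the comparison of early and late libraries does not describe (log2 fold change 2.55 ± 0.67, edgeR adjusted p = 0.0224). Without E21-ZZ its log2 fold change was 1.87.

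Of the beta chains, LAMB1, the partner of LAMA1 or LAMA4 and LAMC1, was at 77.9 CPM in ZZ and 67.1 in DZ at E16, then 58.2 and 63.5 at E18, then 44.6 and 44.4 at E21, then 58.7 and 82.5 at E28. The groups overlapped and the difference did not pass the test (log2 fold change -0.41 ± 0.22, edgeR adjusted p = 0.185). LAMB2, at 1.11 to 4.48 CPM in the 8 libraries, had no overlap between the groups but an edgeR adjusted p of 0.0678. LAMB3, the beta chain of the epithelial laminin, rose from 0.247 ± 0.0825 CPM (SD, n = 4) to 1.28 ± 0.886, on 272 UMIs in all (log2 fold change 2.14 ± 0.58, edgeR adjusted p = 0.0252). Without E28-DZ, where it was highest at 2.51 CPM, its log2 fold change was 1.43.

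Of the linkers, AGRN was the member called. AGRN, known for clustering acetylcholine receptors at the nerve-muscle synapse, was at 35.3 CPM in ZZ and 51.6 in DZ at E16, then 40.8 and 50.4 at E18, then 72.1 and 72.6 at E21, then 96.1 and 75.0 at E28. All late libraries were above all early ones (log2 fold change 0.67 ± 0.17, edgeR adjusted p = 0.0186). HSPG2 was at 67.7 ± 12.2 CPM (SD, n = 4) in early and 63.4 ± 9.99 in late libraries (edgeR adjusted p = 0.285). NID1 and NID2, the nidogens, were at 29.2 ± 5.31 and 27.3 ± 6.8 (edgeR adjusted p = 0.33), and at 37.5 ± 10.7 and 23.4 ± 9.65 (edgeR adjusted p = 0.0845). DAG1, the receptor of laminin, agrin and perlecan, was at 43.4 to 56.0 CPM in the 8 libraries (edgeR adjusted p = 0.179).

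FN1, the fibronectin gene, followed a course that the early and late groups hide. It was at 399 CPM in ZZ and 481 in DZ at E16, then 170.3 and 189 at E18, then 178 and 189 at E21, then 471 and 557 at E28. The E16 and E28 libraries were thus at 399 CPM or more and the E18 and E21 libraries at 189 CPM or less in both breeds, and the early and late groups overlapped (log2 fold change -0.04 ± 0.52, edgeR adjusted p = 0.955). ITGA5, the alpha subunit of the main fibronectin receptor, had a similar shape, at 73.5 CPM in ZZ and 68.7 in DZ at E16, then 39.8 and 41.9 at E18, then 25.4 and 31.8 at E21, then 49.7 and 64.2 at E28. Its lowest libraries were those of E21, and the groups overlapped (log2 fold change -0.60 ± 0.36, edgeR adjusted p = 0.226). VTN, which encodes a plasma and matrix protein that binds integrins, fell from 1.58 ± 0.699 CPM (SD, n = 4) to 0.711 ± 0.11 (log2 fold change -1.33 ± 0.40, edgeR adjusted p = 0.0357).

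Among the receptor subunits, ITGB1, the beta subunit that most of these alpha subunits pair with, was at 195 CPM in ZZ and 208 in DZ at E16, then 233 and 247 at E18, then 267 and 272 at E21, then 325 and 347 at E28. All late libraries were above the early ones in CPM but not after TMM scaling, and the difference did not pass the test (log2 fold change 0.29 ± 0.11, edgeR adjusted p = 0.0853). Of the 3 laminin-binding alpha subunits, ITGA3 was at 11.8 CPM in ZZ and 10.9 in DZ at E16, then 5.09 and 3.96 at E18, then 1.23 and 1.70 at E21, then 0.883 and 0.427 at E28. Within each breed every stage was below the one before it, and no late library reached an early one (log2 fold change -3.10 ± 0.59, edgeR adjusted p = 0.00744). ITGA7, the laminin receptor of muscle, rose from 0.357 ± 0.173 CPM (SD, n = 4) to 2.78 ± 0.8294 (log2 fold change 2.76 ± 0.36, edgeR adjusted p = 0.00257). ITGA6, which pairs with ITGB1 or ITGB4, was at 21.4 ± 2.3 and 16.3 ± 6.29, with its lowest libraries at E28 (edgeR adjusted p = 0.131).

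ITGA4, an alpha subunit that binds fibronectin and the vascular adhesion molecule VCAM1, was at 6.90 CPM in ZZ and 6.21 in DZ at E16, then 11.7 and 21.8 at E18, then 24.4 and 25.5 at E21, then 32.5 and 45.8 at E28. No early library reached a late one, and E18-DZ was the early library nearest to the late ones (log2 fold change 1.33 ± 0.36, edgeR adjusted p = 0.0244). ITGA9, its relative that binds tenascin and osteopontin, was at 6.27 CPM in ZZ and 8.69 in DZ at E16, then 12.5 and 15.8 at E18, then 17.7 and 20.4 at E21, then 21.7 and 19.3 at E28. Again no early library reached a late one, with E18-DZ nearest (log2 fold change 0.74 ± 0.24, edgeR adjusted p = 0.0457). ITGB5, a vitronectin receptor subunit, was at 14.7 CPM in ZZ and 17.1 in DZ at E16, then 26.0 and 29.5 at E18, then 40.5 and 35.7 at E21, then 56.0 and 54.4 at E28, and no early library reached a late one (log2 fold change 0.94 ± 0.23, edgeR adjusted p = 0.0169). ITGB8, which in the embryo activates the growth factor TGF-beta, was at 2.58 CPM in ZZ and 2.68 in DZ at E16, then 4.83 and 5.13 at E18, then 13.1 and 12.0 at E21, then 5.79 and 9.53 at E28. Its highest libraries were those of E21, and all late libraries were above the early ones (log2 fold change 1.25 ± 0.32, edgeR adjusted p = 0.0203). ITGB6, known as a subunit of epithelia, rose from 0.0712 ± 0.0384 CPM (SD, n = 4) to 0.737 ± 0.125, and the cells that held it are described with the muscle lineage (log2 fold change 3.18 ± 0.46, edgeR adjusted p = 0.00326).

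The calls of LAMA1, LAMC1, ITGA3, ITGA7 and ITGB6 were kept when any 1 library was left out. Those of 9 members were lost without some libraries, and the edgeR adjusted p is given for each library left out. This held for LAMA4 without E16-DZ (0.0687), E18-ZZ (0.053), E28-ZZ (0.0725) or E28-DZ (0.0516). It held for LAMC3 without E16-ZZ (0.0668), E18-ZZ (0.0556), E18-DZ (0.0504), E21-ZZ (0.0522) or E21-DZ (0.0927). LAMB3 lost it without E16-ZZ (0.0504), E16-DZ (0.0602), E18-ZZ (0.0626), E18-DZ (0.0573), E28-ZZ (0.0616) or E28-DZ (0.0688). AGRN lost it without E16-ZZ (0.0605) or E18-ZZ (0.0582). VTN lost it without E16-ZZ (0.117), E16-DZ (0.111), E21-ZZ (0.0692), E21-DZ (0.0877), E28-ZZ (0.065) or E28-DZ (0.0764). For ITGA4 this happened without E16-ZZ (0.0695), E28-ZZ (0.0644) or E28-DZ (0.0697). For ITGA9 it happened without E16-ZZ (0.0937), E16-DZ (0.118), E18-ZZ (0.0527), E21-ZZ (0.0627), E21-DZ (0.0913), E28-ZZ (0.12) or E28-DZ (0.0653). ITGB5 lost it without E16-DZ (0.053) or E28-DZ (0.0505). ITGB8 lost it without E16-ZZ (0.0556), E16-DZ (0.0599), E21-ZZ (0.0571) or E21-DZ (0.0523). Without E16-ZZ, the library with many barcodes over the mitochondrial limit, 8 members were called. Without both E16 libraries, which alone were made with the other version of Cell Ranger, 3 members were called (ITGA7, ITGB6, LAMC1), and without both E28 libraries, the myotome samples, 10 were. The share of all genes called in these fits is not given here, so nothing is read from these counts of members.

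The remaining subunits did not pass the test. The collagen receptors ITGA1, ITGA2, ITGA10 and ITGA11 were at 3.16 to 10.8, 1.14 to 2.84, 2.3 to 5.86 and 1.78 to 8.04 CPM over the 8 libraries. ITGA10, a collagen receptor of cartilage, had no overlap between early and late libraries and an edgeR adjusted p of 0.0549. ITGA8, ITGB3 and ITGB4 were at 3.34 to 9.89, 2.14 to 7.06 and 0.427 to 1.77 CPM, and the leukocyte subunit ITGB2 at 0.499 to 1.35. ITGA2B, best known as the fibrinogen receptor subunit of platelets, was at 45.4 to 78.4 CPM in every library and at 21.8 to 92.7 CPM in the means of the 14 classes present in more than 1 library, a narrower range over classes than FN1 with 21.4 to 696. Neuron-like cells held it at 69.2 ± 20.4 CPM (SD, n = 6) and erythroid-like cells at 21.8 ± 8.85 CPM (SD, n = 8), and the source of these counts was not tested.

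Each gated class was compared with all other kept cells of the same libraries, with the library as a block, so a fold sets a class against a mixture that also holds ungated cells. Only for endothelial-like cells is the share of all genes called higher given beside the members. Elsewhere nothing is read from the directions of the members as a set. In erythroid-like cells, which as red cell precursors should lack most matrix genes, FN1 was at 21.4 ± 13.3 CPM (SD, n = 8), LAMC1 at 16.6 ± 7.71 CPM (SD, n = 8) and ITGB1 at 30.5 ± 5.05 CPM (SD, n = 8). The part of free RNA in the levels of any class was not tested. The TMM factors were 0.518 to 1.74 in this comparison, the widest range of any. Called against the other cells were 20 of the 29 members tested, 0 higher and 20 lower, beside 55.8% of all 12221 genes tested. The lower members were AGRN, DAG1, FN1, HSPG2, ITGA1, ITGA3, ITGA5, ITGA6, ITGA8, ITGB1, ITGB5, ITGB8, LAMA1, LAMA4, LAMB1, LAMB2, LAMC1, NID1, NID2 and VTN. Some calls between classes were lost when 1 library was left out. Those kept whichever library was left out were 18 of 20 in erythroid-like cells, 14 of 17 in endothelial-like cells, 14 of 20 in epithelial-like cells, 8 of 17 in glia-like cells, 9 of 13 in fibroblast-like cells and 5 of 10 in lateral mesoderm-like cells. They were 5 of 9 in chondrocyte-like cells, 7 of 13 in somite progenitor-like cells, 19 of 21 in neural progenitor-like cells, 16 of 23 in neuron-like cells, 9 of 14 in myoblast-like cells and 18 of 21 in myocyte-like cells.

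**Figure D3:**
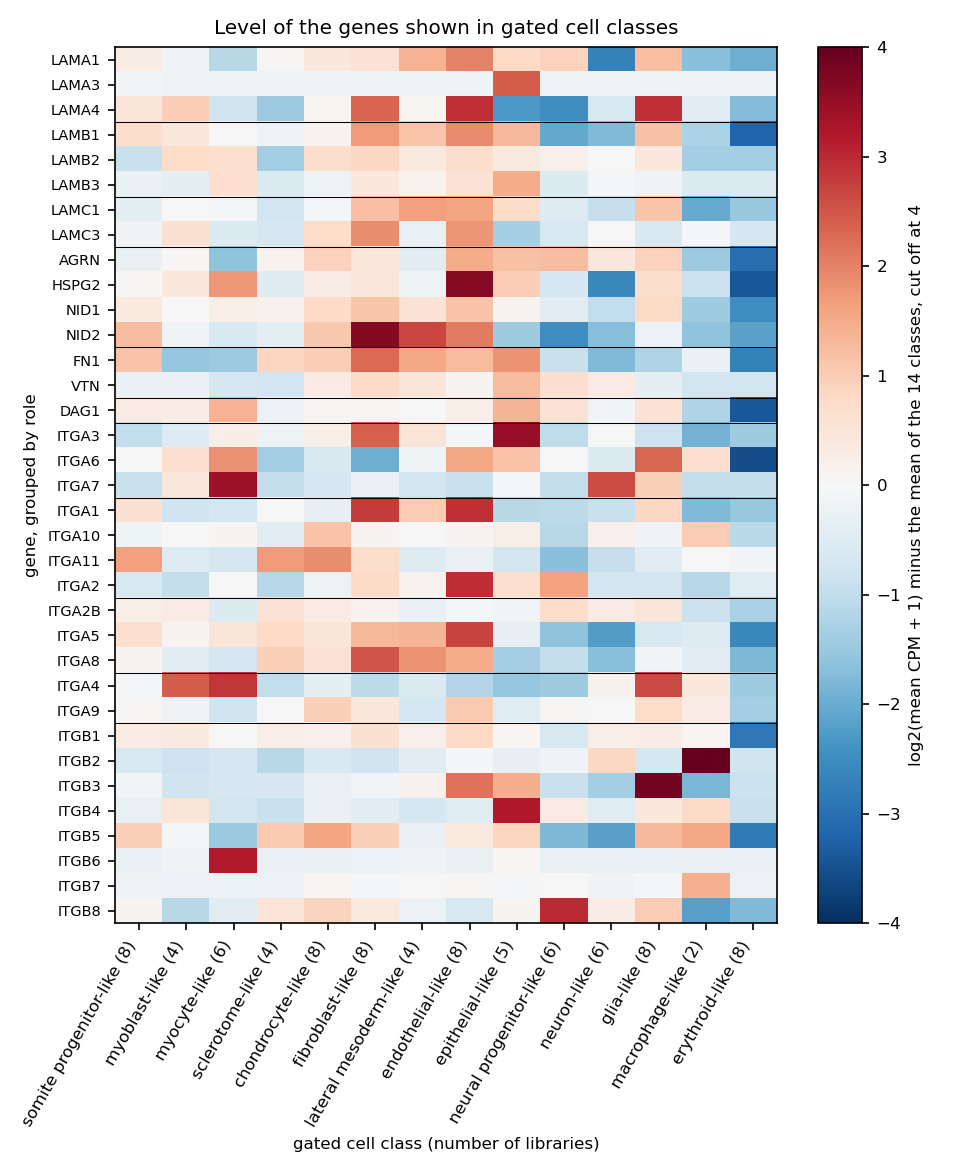
The map gives, for each gene (rows, grouped by role) and gated class (columns, with the number of libraries behind it), log2(mean CPM + 1) minus the gene's mean over the 14 classes, red for above and blue for below, cut off at 4. Among the red fields are HSPG2 in endothelial-like, ITGB6 and ITGA7 in myocyte-like, ITGB3 in glia-like, ITGB2 in macrophage-like and LAMA3, ITGA3 and ITGB4 in epithelial-like cells.

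In endothelial-like cells, the lining of vessels, HSPG2, ITGA5, ITGA1 and ITGA2 were above the other cells in every library. Called were 17 of the 32 members tested, 13 higher and 4 lower, beside 48.6% of all 12773 genes tested, so the count of members called is near that of all genes. Of all genes, 21.9% were called higher. HSPG2, perlecan, was at 252 and 337 CPM at E16, then 357 and 483 at E18, then 615 and 851 at E21, then 909 and 892 at E28 (log2 fold change 3.59 ± 0.19, edgeR adjusted p = 1.6e-07). Its lowest endothelial library was above the highest library of any other class, and the next class was myocyte-like at 158 ± 42.6 CPM (SD, n = 6). ITGA5 was at 173 and 169 CPM at E16, then 132.9 and 157 at E18, then 165 and 212 at E21, then 243 and 236 at E28 (log2 fold change 2.22 ± 0.16, edgeR adjusted p = 1.26e-06), and again no library of another class reached its lowest value. The collagen receptor genes ITGA1 and ITGA2 adjoin on chromosome 16, at 32130265 to 32309917 and 32336240 to 32440311. ITGA2 was at 16.3 ± 11.9 CPM (SD, n = 8) against 1.59 ± 0.635 in the other cells (log2 fold change 3.004 ± 0.54, edgeR adjusted p = 0.000942). ITGA1 was at 24.8 ± 14.3 CPM (SD, n = 8) against 4.67 ± 2.44 in the other cells (log2 fold change 2.36 ± 0.23, edgeR adjusted p = 1.41e-05). LAMA1, LAMB1, LAMC1, NID1, AGRN, ITGB3, ITGA9 and ITGB1 were also higher, by 0.68 (ITGB1) to 1.84 (ITGB3) on the log2 scale, with calls kept without each single library. ITGA4 was lower (log2 fold change -1.18 ± 0.42, edgeR adjusted p = 0.0361), and lost its call without E18-DZ (0.0662), E21-ZZ (0.0724), E21-DZ (0.0742) or E28-DZ (0.0605). LAMA4 and ITGB3 were not higher in every library. LAMA4 was at 5.23 against 14.9 CPM in E16-ZZ and 4.68 against 7.72 CPM in E16-DZ, and ITGB3 at 0 against 3.93 CPM in E28-DZ. Also called in these cells were LAMA4 higher and ITGA11, ITGB4 and ITGB8 lower.

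Epithelial-like cells had LAMA3, a chain of the epithelial laminin, and the receptor subunits ITGA3, ITGA6 and ITGB4 that bind it above the other cells, while LAMB3, another of its chains, did not pass the filter in this comparison. Called were 20 of the 32 members tested, 11 higher and 9 lower, beside 21.5% of all 12948 genes tested. LAMA3 was at 1.35 and 0.706 CPM at E16, then 0.653 and 5.34 at E18, then 18.2 in E21-ZZ (log2 fold change 5.99 ± 0.86, edgeR adjusted p = 0.000769). Its log2 fold change was 4.98 without E21-ZZ and 6.85 without E16-DZ. Of LAMA3, 28 of the 55 UMIs lay in these cells, or 50.9% (95% Wilson interval 38.1% to 63.6%, counting error only), against 2.16% of all kept cells. ITGB4 was at 5.22 and 6.12 CPM at E16, then 13.1 and 8.89 at E18, then 47.4 in E21-ZZ (log2 fold change 4.04 ± 0.46, edgeR adjusted p = 0.000195). ITGA3 was at 37.2 and 53.3 CPM at E16, then 29.4 and 44.5 at E18, then 36.4 in E21-ZZ (log2 fold change 3.31 ± 0.33, edgeR adjusted p = 8.52e-05). ITGA6 was higher too (log2 fold change 1.23 ± 0.14, edgeR adjusted p = 0.00017). The library E21-ZZ had the highest LAMA3 and ITGB4, but it rests on 31 cells. Further calls were AGRN, DAG1, HSPG2, ITGB5, LAMB1 and VTN higher and ITGA1, ITGA11, ITGA4, ITGA5, ITGA8, ITGA9, LAMA4, LAMC3 and NID2 lower. The class also changed in kind, since AFP, a gene of yolk sac and liver, was at 61.3 to 295 CPM and APOA1 at 362 to 3865 CPM in the early libraries and at 0 and 3.64 CPM in E21-ZZ. Beside it, the epithelial-like share of cells went from 10.3% and 8.46% at E16 to 0% to 0.296% in the late libraries, the same direction as ITGA3 in whole libraries. Its part in that change was not tested.

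Glia-like cells, which carry SOX10 and other markers of the neural crest and Schwann cell line, had ITGA4 above the other cells in every library, and ITGB3, ITGA6 and LAMA4 above them in the late but not in every early library. Called were 17 of the 32 members tested, 8 higher and 9 lower, beside 24.6% of all 12825 genes tested. ITGA4 was at 31.8 and 24.1 CPM at E16, then 59.5 and 73.9 at E18, then 149.4 and 122 at E21, then 150.1 and 169.9 at E28 (log2 fold change 2.39 ± 0.14, edgeR adjusted p = 6.91e-07). LAMA4 was at 6.58 and 13.4 CPM at E16, then 23.1 and 22.6 at E18, then 140.2 and 144 at E21, then 222 and 197 at E28 (log2 fold change 1.83 ± 0.38, edgeR adjusted p = 0.00417), and lay below the other cells in the earliest ZZ library, at 6.58 against 14. CPM in E16-ZZ. ITGB3, a subunit of the vitronectin receptor, was at 4.39 and 3.56 CPM at E16, then 1.65 and 1.13 at E18, then 42.3 and 34.9 at E21, then 209 and 97.9 at E28 (log2 fold change 2.94 ± 0.97, edgeR adjusted p = 0.0463). It lay below the other cells early, at 3.56 against 7.13 CPM in E16-DZ, 1.65 against 2.85 CPM in E18-ZZ and 1.13 against 2.21 CPM in E18-DZ. Its call was lost without E21-ZZ (0.127), E21-DZ (0.115), E28-ZZ (0.118) or E28-DZ (0.113), and its log2 fold change was 2.22 without E28-ZZ. ITGA6 was at 8.77 and 11.6 CPM at E16, then 24.8 and 31.0 at E18, then 146 and 150.4 at E21, then 239.9 and 171 at E28 (log2 fold change 2.17 ± 0.72, edgeR adjusted p = 0.0474). It too lay below the other cells at E16, at 8.77 against 18.2 CPM in E16-ZZ and 11.6 against 22.7 CPM in E16-DZ. The call was lost without E21-ZZ (0.119), E21-DZ (0.131), E28-ZZ (0.106) or E28-DZ (0.0919). FN1 and ITGA5 were lower (log2 fold change -2.37 ± 0.25, edgeR adjusted p = 4.92e-05 for FN1 and -1.52 ± 0.19 for ITGA5). The remaining calls in glia-like cells were AGRN, ITGA2B, ITGA9 and ITGB5 higher and ITGA11, ITGA2, ITGA3, ITGA8, LAMC3, NID2 and VTN lower.

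In fibroblast-like cells FN1, NID2, ITGA1 and ITGA8 were above the other cells in every library. Called were 13 of the 33 members tested, 9 higher and 4 lower, beside 13.2% of all 13058 genes tested. FN1 was at 1017 and 888 CPM at E16, then 584 and 733 at E18, then 292 and 252 at E21, then 737 and 1062 at E28 (log2 fold change 1.41 ± 0.18, edgeR adjusted p = 0.000405). NID2 was at 285 and 362 CPM at E16, then 167.2 and 328 at E18, then 21.5 and 17.8 at E21, then 33.5 and 55.8 at E28 (log2 fold change 2.01 ± 0.46, edgeR adjusted p = 0.0163), so its high level was that of the early libraries. ITGA1 was at 23.0 ± 16.8 CPM (SD, n = 8) against 4.58 ± 2.16 in the other cells (log2 fold change 2.04 ± 0.35, edgeR adjusted p = 0.00343). ITGA8, the nephronectin receptor subunit, was at 23.8 ± 19.2 CPM (SD, n = 8) against 5.71 ± 2.08 in the other cells (log2 fold change 1.82 ± 0.25, edgeR adjusted p = 0.000704). Its level was 37.2 CPM early and 10.4 CPM late (means of 4). ITGA6 and ITGA4 were lower (-2.33 ± 0.21 and -1.93 ± 0.30 on the log2 scale). Fibroblast-like cells also had ITGA5, ITGB1, LAMA4, LAMB1 and NID1 higher and ITGA7 and ITGB2 lower. Lateral mesoderm-like cells, tested in the 4 early libraries, also had NID2, ITGA8 and FN1 above the other cells. The 7 lateral mesoderm-like markers summed to 712 to 968 CPM in them and to 635 to 903 CPM in the early fibroblast-like cells, so these markers do not part the classes there. Called there were 10 of the 31 members tested, 6 higher and 4 lower, beside 15.3% of all 12888 genes tested. In them NID2 was at 78.2 ± 19. CPM (SD, n = 4) against 32.6 ± 8.91 in the other cells (log2 fold change 1.29 ± 0.10, edgeR adjusted p = 0.000302). ITGA8 was at 13.9 ± 4.76 CPM (SD, n = 4) against 6.63 ± 1.63 in the other cells (log2 fold change 1.06 ± 0.15, edgeR adjusted p = 0.00378). LAMC1 was at 157 ± 64.6 CPM (SD, n = 4) against 76.1 ± 12.3 in the other cells (log2 fold change 0.99 ± 0.16, edgeR adjusted p = 0.00712). Also called in them were FN1, ITGA5 and LAMB1 higher and HSPG2, ITGB4 and ITGB5 lower.

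In chondrocyte-like cells the collagen receptors ITGA11 and ITGA10 were higher than in the other cells. Leading genes of the early cells of this gate included LMX1A, ZIC2 and ALDH1A2 beside the gate markers COL2A1, SOX9, COL9A1 and ACAN. Whether these early cells are of the skeletal line was not tested. Called in chondrocyte-like cells were 9 of the 31 members tested, 5 higher and 4 lower, beside 11.4% of all 12959 genes tested. ITGA11, a receptor of fibrillar collagen, was at 7.23 and 5.09 CPM at E16, then 8.97 and 10.2 at E18, then 9.09 and 9.39 at E21, then 21.9 and 12.6 at E28 (log2 fold change 1.57 ± 0.16, edgeR adjusted p = 9.78e-05). NID1 was at 37.6 ± 9.41 CPM (SD, n = 8) against 27.7 ± 5.67 in the other cells (log2 fold change 0.44 ± 0.09, edgeR adjusted p = 0.0091). ITGA10 was at 1.45 and 4.37 CPM at E16, then 4.48 and 2.24 at E18, then 7.33 and 5.24 at E21, then 22.3 and 18.5 at E28 (log2 fold change 1.09 ± 0.31, edgeR adjusted p = 0.0412), low before E28. It was below the other cells at 1.45 against 2.60 CPM in E16-ZZ and 2.24 against 3.12 CPM in E18-DZ. The call was lost without E16-DZ (0.0541), E18-ZZ (0.0647), E21-ZZ (0.0842), E21-DZ (0.0837), E28-ZZ (0.116) or E28-DZ (0.12). Besides, ITGA9 and ITGB5 higher and ITGA1, ITGA6, ITGB3 and LAMA4 lower were called in chondrocyte-like cells. The somite progenitor-like cells carry PAX3, TCF15 and MEOX1. Called in them were 13 of the 31 members tested, 1 higher and 12 lower, beside 13.7% of all 12700 genes tested. The higher member was ITGA11 (log2 fold change 1.55 ± 0.40, edgeR adjusted p = 0.0137), whose call was lost without E16-DZ (0.0662) or E18-ZZ (0.0554). It had no UMI in E21-ZZ and E28-ZZ progenitor-like cells. The lower members were AGRN, HSPG2, ITGA1, ITGA2, ITGA3, ITGA8, ITGB3, ITGB8, LAMA4, LAMB2, LAMC1 and LAMC3. Sclerotome-like cells passed the minimum of 20 cells in 4 libraries with 32 to 50 cells each. Called were 7 of the 30 members tested, 1 higher and 6 lower, beside 4.85% of all 12630 genes tested, and none of these calls was kept without each single library. They were FN1 higher and HSPG2, ITGA4, ITGA6, LAMA4, LAMC1 and NID2 lower. FN1 (log2 fold change 0.40 ± 0.13, edgeR adjusted p = 0.0462) had a log2 fold change of -0.11 without E21-ZZ, and was lower at E18, at 162 against 170.4 CPM in E18-ZZ and 115 against 189 CPM in E18-DZ.

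In the neural classes the split of the calls by direction is not set here against that of all genes, so nothing is read from it. In neural progenitor-like cells the calls were 21 of the 30 members tested, 5 higher and 16 lower, beside 28.8% of all 12683 genes tested. In neuron-like cells they were 23 of the 32 members tested, 2 higher and 21 lower, beside 46.7% of all 13018 genes tested. ITGB8 was higher in progenitors, at 13.2 and 17.9 CPM at E16, then 17.9 and 26.9 at E18, then 64.4 and 68.9 at E21 (log2 fold change 2.296 ± 0.19, edgeR adjusted p = 4.86e-08), and was higher than in the other cells in all 6 libraries. AGRN was at 107 ± 41.8 CPM (SD, n = 6) against 53.0 ± 15.4 in the other cells (log2 fold change 0.81 ± 0.10, edgeR adjusted p = 9.48e-06). ITGA2 was at 5.81 ± 2.21 CPM (SD, n = 6) against 2.16 ± 0.531 in the other cells (log2 fold change 1.26 ± 0.35, edgeR adjusted p = 0.0123). This call was lost without E18-ZZ (0.0733). The further calls in progenitors were DAG1 and ITGA2B higher and FN1, HSPG2, ITGA1, ITGA11, ITGA3, ITGA4, ITGA5, ITGA8, ITGB1, ITGB5, LAMA4, LAMB1, LAMC1, LAMC3, NID1 and NID2 lower. Neuron-like cells had ITGA7 at 0 and 0 CPM at E18, then 5.37 and 14.9 at E21, then 21.4 and 23.8 at E28 (log2 fold change 2.35 ± 0.38, edgeR adjusted p = 0.000708), with no UMI in either E18 library. LAMA1 was at 1.01 ± 1.31 CPM (SD, n = 6) in neurons and 24.1 ± 6.43 CPM (SD, n = 6) in progenitors, and ITGB5 at 3.60 ± 4.08 CPM (SD, n = 6) and 5.06 ± 3.47 CPM (SD, n = 6). The neuron-like libraries were of E18, E21 and E28 and the progenitor-like ones of E16, E18 and E21, so these means also differ in stage. ITGB2 was called in neuron-like cells (log2 fold change 1.84 ± 0.60, edgeR adjusted p = 0.0284), on 24 UMIs and with a call lost without E18-ZZ (0.0632), E18-DZ (0.0649) or E21-ZZ (0.171). Its known carriers, macrophage-like cells, passed 20 cells in the E28 libraries alone and held 219 and 118 CPM at E28, with no test, and 90 of its 268 UMIs lay in 82 such cells. In neurons the lower members were DAG1, FN1, HSPG2, ITGA1, ITGA11, ITGA2, ITGA4, ITGA5, ITGA6, ITGA8, ITGA9, ITGB3, ITGB5, ITGB8, LAMA1, LAMA4, LAMB1, LAMC1, LAMC3, NID1 and NID2.

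The muscle lineage was compared over 3 classes, somite progenitor-like, myoblast-like (PAX7, MYF5, MYOD1) and myocyte-like cells (MYOG, MYL1, MYH3), within the 4 late libraries that held enough of each. Descent from 1 class to the next was not tested. From progenitors to myoblasts the calls were 2 of the 17 members tested, 1 higher and 1 lower, beside 5.14% of all 7789 genes tested. ITGA4 rose, and was at 8.82 and 27.8 CPM at E21, then 13.1 and 10.2 at E28 in progenitors. In myoblasts it was at 58.1 and 74.8 CPM at E21, then 102 and 104 at E28 (log2 fold change 2.20 ± 0.28, edgeR adjusted p = 0.000411, or 2.96 without E21-DZ). FN1 fell, and was at 116 and 217 CPM at E21, then 542 and 676 at E28 in progenitors. In myoblasts it was at 19.4 and 34.4 CPM at E21, then 61.4 and 81.0 at E28 (log2 fold change -2.88 ± 0.15, edgeR adjusted p = 1.62e-07). In every library the myoblast level of FN1 was below and that of ITGA4 above the progenitor level. The late progenitor-like sums hold 32 to 119 cells each, which limits this step. Their fibroblast-like markers summed to 34.1 to 80.8 CPM early and 446 to 1972 CPM late, all 8 of them detected, and the part of such RNA in the FN1 of late progenitors was not tested. The neuron-like markers summed to 406 to 1147 CPM late. Leading genes of the late progenitor-like cells included OGN, DKK2, CHODL, EBF2, FIBIN and THBS4 beside the gate markers DMRT2, MEOX1, MEOX2 and PAX3. Whether the late cells of this gate are muscle precursors was not settled.

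From myoblasts to myocytes both receptor and matrix genes were called in each direction. The calls were 15 of the 19 members tested, 6 higher and 9 lower, beside 42.6% of all 9274 genes tested. ITGB6 had 115 UMIs in the late myocyte-like and 2 in the myoblast-like cells, a ratio of 77.5 per UMI sequenced (exact 95% interval 21.0 to 648, counting error only). Both myoblast UMIs were in E28-DZ, so without that library the ratio has no denominator. The fitted log2 fold change was 8.06 without it and 5.68 without E28-ZZ. In myocytes ITGB6 was at 1.81 and 3.58 CPM at E18, then 17.4 and 19.7 at E21, then 10.5 and 7.49 at E28, and at 0 and 0 CPM at E21, then 0 and 0.33 at E28 in myoblasts. Myocyte-like cells held 118 UMIs of ITGB6, or 82.5% of those in all cells (95% Wilson interval 75.5% to 87.9%). They made up 2.42% of cells. Epithelial-like cells held 7 UMIs. ITGA7 was at 12.7 and 16.1 CPM at E18, then 24.8 and 29.8 at E21, then 13.9 and 18.2 at E28. In myoblasts it was at 2.53 and 2.18 CPM at E21, then 0.476 and 1.48 at E28 (log2 fold change 4.04 ± 0.26, edgeR adjusted p = 4.47e-07). ITGA4 rose further (log2 fold change 1.23 ± 0.15, edgeR adjusted p = 6.22e-05). HSPG2 rose (log2 fold change 1.44 ± 0.12, edgeR adjusted p = 2.95e-06). DAG1, whose product carries the dystrophin complex, rose by less (log2 fold change 0.54 ± 0.10, edgeR adjusted p = 0.00129). The TMM factors of this step were 0.819 to 0.966 for myocytes and 1.03 to 1.14 for myoblasts. This scaling raises the fitted folds of this step above the ratio of the levels, and no fit without it was made. ITGA6 rose as well (log2 fold change 0.73 ± 0.18, edgeR adjusted p = 0.00735). This call was lost without E21-DZ (0.0523).

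**Figure D4:**
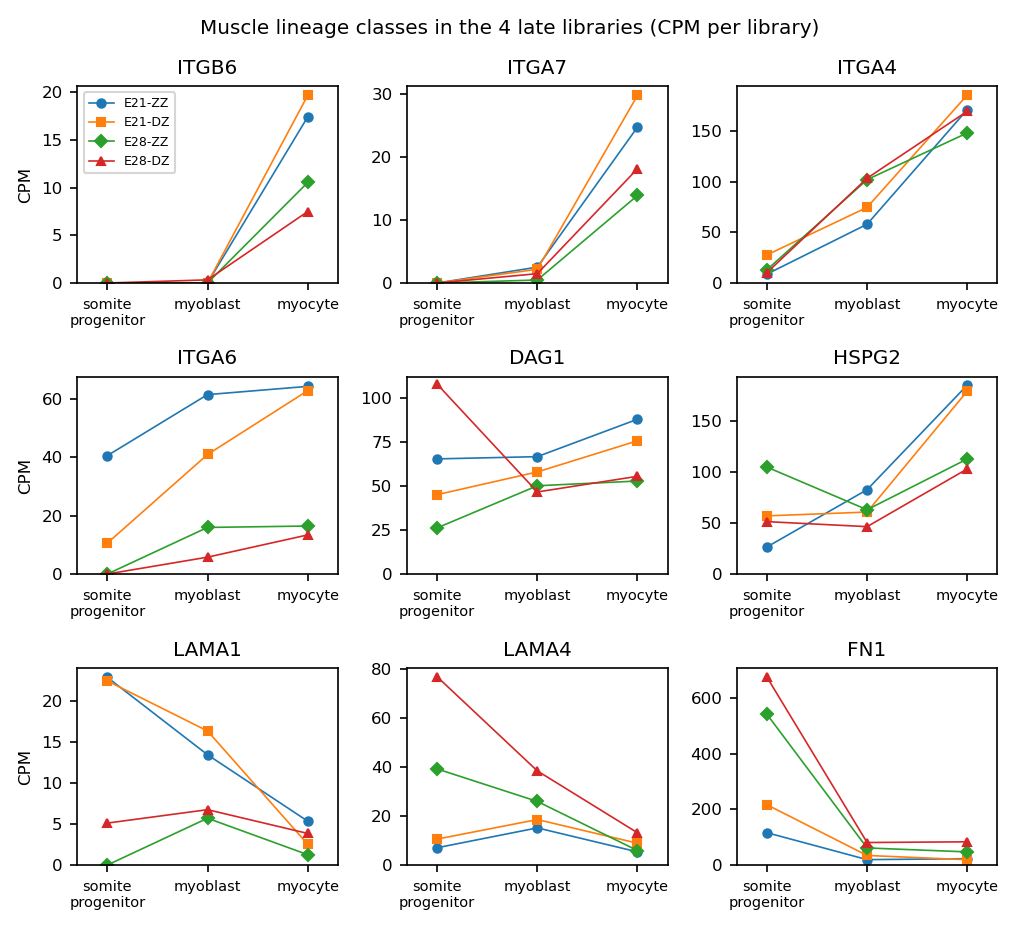
Each panel shows a gene's level in CPM in somite progenitor-like, myoblast-like and myocyte-like cells, with a line and symbol for each of the 4 late libraries and an axis from 0. ITGB6 and ITGA7 stay near 0 until the last class, ITGA4 climbs at both steps, and FN1 drops at the first step in all 4 libraries.

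The matrix genes that fell from myoblasts to myocytes were AGRN (log2 fold change -1.48 ± 0.17, edgeR adjusted p = 4.96e-05), NID2 (-1.42 ± 0.28), LAMA4 (-1.33 ± 0.19), LAMB1 (-0.91 ± 0.13), LAMA1 (-1.24 ± 0.33) and LAMC1 (-0.45 ± 0.15). The call of LAMA1 was lost without E21-DZ (0.0543), and without E28-DZ it did not pass the filter and was not tested. That of LAMC1 was lost without E28-ZZ (0.174) or E28-DZ (0.124). The receptors ITGA9, ITGB5 and ITGA2B fell too, by 1.21, 1.19 and 0.58 on the log2 scale, that of ITGA2B by 0.38 without E21-DZ. ITGB1, the common partner, was at 311 and 300.2 CPM at E21, then 308 and 251 at E28 in myoblasts. In myocytes it was at 240.3 and 235 CPM at E21, then 207 and 223 at E28, below the myoblast level in each library, but the tested difference, after TMM scaling with factors of 0.819 to 1.14, was -0.09 ± 0.08 and did not pass (edgeR adjusted p = 0.405). In the late libraries fibroblast-like markers summed to 383 to 1142 CPM in myoblasts and 127 to 405 CPM in myocytes. Somite progenitor-like markers summed to 147 to 267 and 34.6 to 71.6 CPM. The glia-like markers did not fall, at 772 to 1303 CPM in myoblasts and 953 to 1454 CPM in myocytes. The part of these shifts in the falls of the matrix genes was not tested.

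Against all other cells of 6 libraries, the calls in myocyte-like cells were 21 of the 33 members tested, 6 higher and 15 lower, beside 39.6% of all 12885 genes tested. In myoblast-like cells of 4 libraries they were 14 of the 33 members tested, 1 higher and 13 lower, beside 30.5% of all 13206 genes tested. ITGA4 was the higher member in myoblasts (log2 fold change 1.72 ± 0.12, edgeR adjusted p = 6.56e-05). The lower members there were AGRN, FN1, ITGA1, ITGA11, ITGA2, ITGA8, ITGA9, ITGB3, ITGB5, ITGB8, LAMA4, LAMB3 and NID2. In myocytes ITGB6, ITGA7, ITGA4, ITGA6, HSPG2 and DAG1 were higher, with log2 fold changes of 7.48, 4.44, 2.48, 1.91, 1.65 and 1.30. Lower in myocytes were AGRN, FN1, ITGA1, ITGA11, ITGA2B, ITGA8, ITGA9, ITGB3, ITGB4, ITGB5, ITGB8, LAMA1, LAMA4, LAMC3 and NID2. The E18 myocyte-like cells stood apart from the later ones in some of these genes. ITGA4 was at 10.9 and 3.58 CPM at E18, then 171 and 186 at E21, then 148 and 169.8 at E28, lowest at E18, where it was below the other cells in both libraries. ITGA6 was at 127 and 139.5 CPM at E18, then 64.3 and 62.8 at E21, then 16.4 and 13.4 at E28. DAG1 was at 205 and 233 CPM at E18, then 87.7 and 75.5 at E21, then 52.7 and 55.4 at E28. Both were highest at E18. MYOG was lower there (41.1 to 47.1 CPM against 157 to 310.2 CPM later), and the heart markers MYBPC3, NKX2-5 and TNNI3 were at most 8.94 CPM. In myocyte-like cells the myocyte-like markers summed to 5849 to 7284 CPM early and 10360 to 14775 CPM late, the chondrocyte-like markers to 301 to 321 CPM early and 45.4 to 92.6 CPM late and the somite progenitor-like markers to 210.3 to 265 CPM early and 34.6 to 71.6 CPM late (all of each list detected), where early is E18. What the E18 cells of this gate are was not settled, and the part of these markers in their levels was not tested. Without both E18 libraries, an alternative added after the values were seen, the same 6 members were higher, and the log2 fold change was 3.21 for ITGA4, 0.82 for DAG1 and 1.51 for ITGA6.

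Within classes, early and late libraries could be compared where at least 3 of each held 20 or more cells, which sets the mix of classes aside. Calls kept whichever library was left out were 7 of 10 in endothelial-like cells, 10 of 15 in glia-like cells, 6 of 13 in chondrocyte-like cells, 10 of 13 in fibroblast-like cells and 1 of 2 in somite progenitor-like cells. A member not tested in a fit counts as not kept. The split of all genes by direction is not given for the fits within classes, so nothing is read from the directions of the members as a set. In endothelial-like cells the calls were 10 of the 21 members tested, 9 higher and 1 lower, beside 26.5% of all 9338 genes tested. LAMA4 was at 5.23 and 4.68 CPM at E16, then 16.1 and 29.9 at E18, then 130.2 and 133.6 at E21, then 212 and 229 at E28 (log2 fold change 3.70 ± 0.50, edgeR adjusted p = 0.000746, or 4.40 without E18-DZ). LAMA1 fell over the same libraries and was at 71.2 and 93.6 CPM at E16, then 58.6 and 79.1 at E18, then 24.3 and 46.2 at E21, then 22.4 and 17.6 at E28 (log2 fold change -1.58 ± 0.25, edgeR adjusted p = 0.0017). No early library reached a late one for LAMA4, and no late library an early one for LAMA1. HSPG2 (log2 fold change 1.12 ± 0.17, edgeR adjusted p = 0.00152), AGRN (1.52 ± 0.20), ITGA6 (2.01 ± 0.35) and ITGA2 (2.14 ± 0.33) rose. Also called were ITGA1, ITGA9, ITGB1 and LAMB1 higher late. LAMC3 was at 0.228 and 1.51 CPM at E16, then 1.93 and 2.33 at E18, then 25.4 and 49.7 at E21, then 0 and 0 at E28 and did not pass the filter. It had 53 UMIs at E21 against 25 at the other stages, a ratio of 26.6 per UMI sequenced (exact 95% interval 16.2 to 44.6, counting error only). The endothelial-like markers themselves summed to 3690 to 4225 CPM early and 5875 to 8226 CPM late, with 0 of the 9 higher early. The fibroblast-like markers in endothelial-like cells summed to 46.3 to 87.2 CPM early and 138 to 257 CPM late. Over the same libraries the chondrocyte-like markers in them went from 422 to 581 CPM early to 71.9 to 290.1 CPM late and the lateral mesoderm-like markers from 79.1 to 124 CPM early to 1.40 to 48.0 CPM late, with all 7 of the latter higher early. The part of these shifts was not tested.

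**Figure D5:**
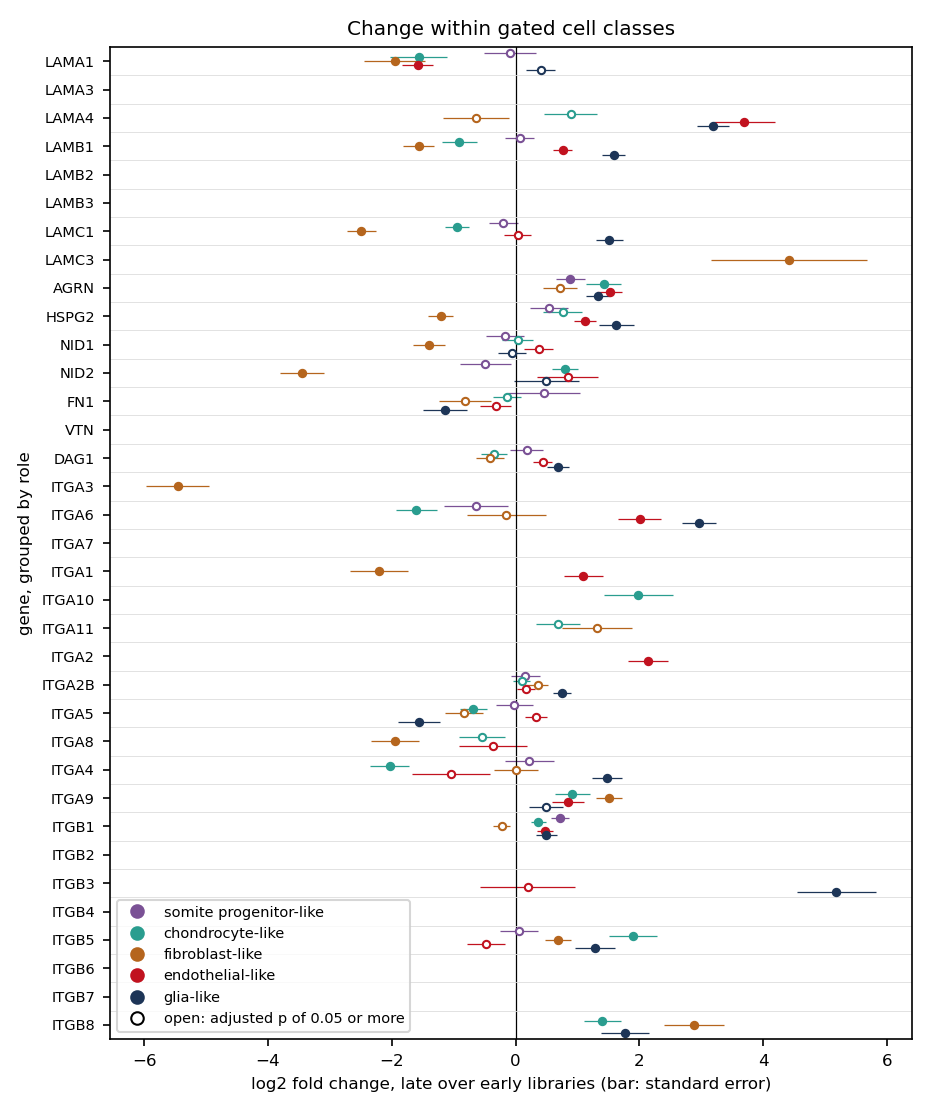
Points give the log2 fold change of each gene (rows, grouped by role) between late and early libraries within 5 gated classes, with bars for the standard error, filled where the adjusted p is under 0.05 and open where it is not. LAMA4 lies far to the right in endothelial-like and glia-like cells, while LAMB1, LAMC1 and HSPG2 lie to the right in glia-like and to the left in fibroblast-like cells.

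In glia-like cells the calls were 15 of the 19 members tested, 13 higher and 2 lower, beside 28.2% of all 8394 genes tested. ITGB3 had the greatest change (log2 fold change 5.18 ± 0.63, edgeR adjusted p = 5.75e-05, or 4.56 without E28-ZZ), from the values given above. LAMA4 (log2 fold change 3.19 ± 0.26, edgeR adjusted p = 2.17e-06), LAMB1 (1.58 ± 0.19) and LAMC1 (1.51 ± 0.21), which together can form a laminin trimer, rose, and LAMC1 was at 37.3 and 60.6 CPM at E16, then 47.9 and 61.2 at E18, then 147 and 105 at E21, then 212 and 186 at E28. The laminin receptor subunit ITGA6 (2.96 ± 0.28), HSPG2 (1.63 ± 0.29), AGRN (1.33 ± 0.19), ITGB8 (1.77 ± 0.38), ITGA4 (1.48 ± 0.24) and ITGA2B (0.75 ± 0.15) rose with them. ITGA5 fell (-1.56 ± 0.34). FN1 fell too, and was at 156 and 93.6 CPM at E16, then 48.5 and 42.0 at E18, then 48.5 and 33.0 at E21, then 44.2 and 34.2 at E28 (log2 fold change -1.14 ± 0.36, edgeR adjusted p = 0.0301). This call was lost without E16-ZZ (0.146), E16-DZ (0.103), E21-ZZ (0.0724), E21-DZ (0.058), E28-ZZ (0.0662) or E28-DZ (0.0697). The other calls in glia-like cells were DAG1, ITGB1 and ITGB5 higher late. The cells changed in kind too, as the neuron-like markers in them summed to 512 to 615 CPM early and 123 to 199 CPM late (1 of the 6 markers was at 0), and POSTN was at 16.5 to 173 CPM early and 1234 to 2829 CPM late. The fibroblast-like markers, which include POSTN, summed to 52.6 to 194 CPM early and 1355 to 3144 CPM late (all 8 detected, 3.0 of them higher early). Neural progenitor-like markers summed to 14.3 to 41.9 CPM early and 175 to 500.3 CPM late (1 of 5 at 0) and somite progenitor-like markers to 125 to 249.7 CPM early and 58.9 to 97.9 CPM late. The lateral mesoderm-like markers, at 9.87 to 19.3 CPM early and 0 to 3.17 CPM late, were all higher early. The part of these shifts in the calls was not tested. Without E21-ZZ or E21-DZ ITGB8 did not pass the filter and was not tested.

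In chondrocyte-like cells the calls were 13 of the 21 members tested, 7 higher and 6 lower, beside 23.3% of all 10132 genes tested. ITGB5 was at 14.5 and 13.8 CPM at E16, then 35.5 and 34.5 at E18, then 64.5 and 51.8 at E21, then 119 and 153 at E28 (log2 fold change 1.89 ± 0.39, edgeR adjusted p = 0.0078), each stage above the one before it in both breeds. AGRN (1.42 ± 0.28) and ITGB8 (1.40 ± 0.30) rose, and ITGA10 rose (log2 fold change 1.98 ± 0.56, edgeR adjusted p = 0.0278) with a call lost without E16-ZZ (0.0674), E16-DZ (0.0524), E18-ZZ (0.0731), E18-DZ (0.0923), E28-ZZ (0.0829) or E28-DZ (0.0758). ITGA4 fell, at 13. and 16.7 CPM at E16, then 21.7 and 22.4 at E18, then 4.11 and 6.77 at E21, then 3.89 and 2.52 at E28 (log2 fold change -2.03 ± 0.32, edgeR adjusted p = 0.00197), as did ITGA6 (-1.60 ± 0.33), LAMC1 (-0.94 ± 0.19) and LAMA1 (log2 fold change -1.56 ± 0.46, edgeR adjusted p = 0.0336), the last with a call lost without E16-ZZ (0.077), E16-DZ (0.0791), E18-ZZ (0.0661), E18-DZ (0.0903) or E28-ZZ (0.0684). Further members called in chondrocyte-like cells were ITGA9, ITGB1 and NID2 higher late and ITGA5 and LAMB1 lower late. These cells changed in kind as well. Their chondrocyte-like markers summed to 787 to 1187 CPM early and 1869 to 7802 CPM late, with MATN1 at 0 early and 75.0 CPM late in the mean. Fibroblast-like markers summed to 32.0 to 120.1 CPM early and 346 to 1652 CPM late (all 8 detected). Somite progenitor-like markers summed to 231 to 320.2 CPM early and 92.9 to 112 CPM late (all 6 detected). Lateral mesoderm-like markers summed to 38.7 to 87.3 CPM early and 0.42 to 14.4 CPM late and epithelial-like markers to 12.1 to 94.6 CPM early and 1.68 to 2.18 CPM late, with all 7.0 of each list higher early. The part of these shifts in the calls was not tested. In somite progenitor-like cells the calls were 2 of the 15 members tested, 2 higher and 0 lower, beside 10.3% of all 7074 genes tested. ITGB1 was at 184 and 211 CPM at E16, then 225 and 221 at E18, then 349 and 344 at E21, then 327 and 399.6 at E28 (log2 fold change 0.71 ± 0.15, edgeR adjusted p = 0.00737). AGRN was at 19.5 and 21.6 CPM at E16, then 22.5 and 34.7 at E18, then 42.3 and 47.6 at E21, then 52.3 and 51.2 at E28 (log2 fold change 0.88 ± 0.23, edgeR adjusted p = 0.0297). This call was lost without E16-ZZ (0.0621), E16-DZ (0.0761), E18-ZZ (0.0747), E21-ZZ (0.0743), E21-DZ (0.0677) or E28-ZZ (0.0691). These progenitor-like cells changed in kind too. Neuron-like markers in them summed to 20.9 to 27.4 CPM early and 406 to 1147 CPM late (1 of the 6 at 0) and myocyte-like markers to 30.4 to 114 CPM early and 189.5 to 834 CPM late (all 8 detected), beside the fibroblast-like markers given above. The lateral mesoderm-like markers, at 9.84 to 23.7 CPM early and 0 to 6.54 CPM late, were all higher early. The part of these shifts in both calls was not tested. In erythroid-like cells the calls were 0 of the 4 members tested, 0 higher and 0 lower, beside 1.83% of all 3493 genes tested, and FN1, LAMC1, ITGB1 and ITGA2B had unadjusted p-values of 0.259 or more. DESeq2 called 0 of them.

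The fibroblast-like class gave the calls 13 of the 23 members tested, 4 higher and 9 lower, beside 27.2% of all 10065 genes tested, but its early and late cells were unlike each other. In the early libraries the keratin KRT8 was at 7594 to 10896 CPM, APOE at 1553 to 7067 and HAND1, a marker of lateral and extra-embryonic mesoderm, at 544 to 781, against 2.79 to 148, 11. to 43.1 and 0 to 2.38 in the late ones. All 7 lateral mesoderm-like markers were detected and together summed to 635 to 903 CPM early and 2.14 to 34.6 CPM late. In the same comparison NID2 (log2 fold change -3.45 ± 0.35, edgeR adjusted p = 0.000117), ITGA3 (-5.46 ± 0.51), LAMC1 (-2.49 ± 0.24), ITGA1 (-2.20 ± 0.47), ITGA8 (-1.95 ± 0.38), LAMB1 (-1.57 ± 0.25), NID1 (-1.39 ± 0.26) and HSPG2 (-1.21 ± 0.20) fell. ITGB8 (2.88 ± 0.48) and ITGA9 (1.51 ± 0.21) rose, and LAMC3 was at 0.981 and 0 CPM at E16, then 1.79 and 0 at E18, then 50.2 and 25.3 at E21, then 4.41 and 4.44 at E28 (log2 fold change 4.41 ± 1.25, edgeR adjusted p = 0.0259, or 5.03 without E18-ZZ). This call was lost without E16-ZZ (0.083), E16-DZ (0.0582), E18-ZZ (0.0616) or E18-DZ (0.083), and without E21-ZZ, E21-DZ, E28-ZZ or E28-DZ LAMC3 did not pass the filter, so no fit on fewer libraries kept the call. Also called in fibroblast-like cells were ITGB5 higher late and LAMA1 lower late. The early cells held 5 LAMC3 UMIs. Whether these are changes within fibroblasts or between kinds of cell that share the gate cannot be told apart here.

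Between classes, the difference of these changes was tested for 5 pairs of classes in which a member was called in opposite directions, with the library as a block. In such pairs 7 members were called, and each passed the test of the difference. Since opposite calls on the same counts chose them, passing was close to fixed in advance and is no separate support. Of all genes in the same tests, 23.7% of 10017 were called between glia-like and fibroblast-like, 11.7% of 10134 between glia-like and chondrocyte-like and 19.8% of 10778 between endothelial-like and fibroblast-like cells. Between endothelial-like and chondrocyte-like cells 12.1% of 10912 were called, and between chondrocyte-like and fibroblast-like cells 24.2% of 10815. The pairs were chosen after the values were seen, so nothing is read from the number of members.

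The breeds were compared over the 8 libraries with the stage as a block. Of the 34 members tested, 0 were called by edgeR, beside 0% of all 14337 genes, and 0 had an unadjusted p under 0.05. DESeq2 also called 0 members, with 1 under that unadjusted threshold. The member nearest to a call was FN1, 0.17 ± 0.08 higher in DZ on the log2 scale (edgeR adjusted p = 0.799). The test of whether the change from early to late differed between breeds called 0 of 36 members by edgeR, beside 0% of 15119 genes, with 0 members under an unadjusted p of 0.05 (0 called and 1 under it by DESeq2).

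Other genes of the same pathways were also tested in whole libraries, and the values are log2 fold changes of late against early libraries with their SE. Of 16 basement membrane collagens and related genes tested, 2 rose and 5 fell, where 34.3% of all genes were called, and nothing is read from this count or from those that follow. The collagen IV chains COL4A5 (-1.67 ± 0.28) and COL4A6 (-1.96 ± 0.40) and COL18A1 (-1.27 ± 0.17) were among those that fell, while COL15A1 (1.55 ± 0.27) and the laminin-like netrin NTN4 (1.78 ± 0.51) rose. Of 13 laminin receptors and genes of the dystrophin complex, 4 rose and 3 fell, with the muscle sarcoglycan SGCA (4.31 ± 0.64) up and the laminin receptor BCAM (-1.52 ± 0.19) and the integrin partner CD151 (-1.22 ± 0.16) down. Of 18 integrin adaptors and kinases, 3 rose, among them vinculin, VCL (0.44 ± 0.14), and 3 fell, among them PARVB (-2.33 ± 0.38) and FERMT1 (-1.37 ± 0.35). Of the 4 other integrin alpha genes tested, including ITGAV, 0 were called by edgeR.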

How the data were processed

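Single cells of 8 pools of 5 pig embryos were captured by 10x Chromium 3' chemistry. The authors deposited unnormalised UMI counts per gene and barcode, made with Cell Ranger 3.1.0 for the E16 and 3.0.2 for the other libraries and aligned to Sscrofa11.1 with Ensembl 98 genes, with barcodes already called as cells. The version cannot be told apart from stage E16, nor the myotome from E28.

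Barcodes with under 200 genes, over 30000 UMIs or over 10% mitochondrial UMIs (13 genes) were left out. Doublets were ranked by Scrublet in scanpy 1.11.5 and removed at 0.8% per 1000 barcodes, 8247 in all, since the automatic threshold marked 0 to 420 per library. UMIs were summed per library, or per library and class with at least 20 cells, and tested with the edgeR 4.0.16 quasi-likelihood test in R 4.3.3 (TMM scaling, filterByExpr, Benjamini-Hochberg over all genes tested, called at an adjusted p under 0.05), with breed as a covariate for stage, stage for breed and library as a block for classes. The levels in CPM carry no TMM scaling. The same samples enter several comparisons. Shares of chains were tested by exact permutation over libraries; no share of an integrin alpha subunit passed (lowest adjusted p = 0.0857). The edgeR and permutation tests were tested on simulated data. DESeq2 1.42.0, other filters, gates and scalings, and leaving out each library were alternatives. Each stage and breed is 1 library, so p-values measure the spread between these libraries, which may be technical. In the tests of late against early this spread, like an SD over the 4 libraries of a group, also holds the change between the stages inside a group. For LAMA4 the late SD of 24.3 CPM spans 20.2 and 20.4 CPM at E21 and 53.2 and 68.7 CPM at E28. Intervals on counts cover counting error only. All values come from 3' UMIs, so a gene's precision follows its UMIs, 55 (LAMA3) to 123631 (FN1) per member.

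The members and lists were chosen with earlier results of these data known. For 1 member and 1 related gene, values are not reported here, though counts include them. Named in full were members called late against early or in a step of the muscle lineage, up to 3 members per class with the largest fold among those called and higher in every library on the TMM scale, and LAMA1, LAMA4, LAMB1, LAMC1, NID1, FN1, DAG1, ITGA5, ITGA6, ITGA7, ITGA9 and ITGB1 by role; others named, and KRT8, APOE, HAND1, POSTN, AFP, APOA1 and MYOG, were chosen after their values were seen. Laminin alpha shares cover LAMA1, LAMA3 and LAMA4, although LAMA2 and LAMA5 had been planned. The test of the breed by period interaction with DESeq2, the tests between classes and the myocyte-like fit without E18 were added after seeing the data.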

Additional observations from a re-analysis of the deposited data

Results flagged for a closer look

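The change from early to late libraries differed between cell classes for 7 genes, by a test of the difference itself with the library as a block, run for pairs of classes in which a gene was called in opposite directions and added after the values were seen. The pairs were therefore chosen for a difference in the same counts, so passing this test is no separate support. The values are the log2 change in the first class minus that in the second, with the SE. In the 5 pairs tested, 11.7% to 24.2% of all genes were called, and nothing is read from the number of members. For the laminin chain LAMB1 the difference was 3.07 ± 0.21 (edgeR adjusted p = 2.14e-07) between glia-like and fibroblast-like cells, 2.42 ± 0.32 (edgeR adjusted p = 0.000142) between glia-like and chondrocyte-like cells, 2.28 ± 0.25 (edgeR adjusted p = 1.85e-05) between endothelial-like and fibroblast-like cells and 1.61 ± 0.33 (edgeR adjusted p = 0.00639) between endothelial-like and chondrocyte-like cells. For its partner LAMC1 it was 3.91 ± 0.22 (edgeR adjusted p = 5.21e-08) between glia-like and fibroblast-like and 2.33 ± 0.21 (edgeR adjusted p = 4.65e-06) between glia-like and chondrocyte-like cells. HSPG2 differed by 2.81 ± 0.24 (edgeR adjusted p = 1.63e-06) between glia-like and fibroblast-like and by 2.32 ± 0.25 (edgeR adjusted p = 2.14e-05) between endothelial-like and fibroblast-like cells.

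Among the integrin subunits, ITGA6 differed by 4.45 ± 0.39 (edgeR adjusted p = 4.6e-06) between glia-like and chondrocyte-like and by 3.44 ± 0.55 (edgeR adjusted p = 0.00116) between endothelial-like and chondrocyte-like cells. ITGA4 differed by 3.41 ± 0.31 (edgeR adjusted p = 5.91e-06) between glia-like and chondrocyte-like cells, and ITGA1 by 3.35 ± 0.39 (edgeR adjusted p = 3.6e-05) between endothelial-like and fibroblast-like cells. The nidogen NID2 differed by 4.21 ± 0.27 (edgeR adjusted p = 2.79e-07) between chondrocyte-like and fibroblast-like cells. The values that involve fibroblast-like cells rest on early cells with high KRT8, APOE and HAND1. In 5 of 72 groups of 4 libraries, early or late for each gene, 1 library lay apart from the rest by Dixon's test, which chance passes in about 1 of 20 groups. They were AGRN in the late libraries, highest in E28-ZZ at 96.1 CPM, and ITGA2 in the late libraries, highest in E21-ZZ at 2.84 CPM. ITGA6 was lowest of the early libraries in E16-ZZ at 18.0 CPM, NID1 highest of the early in E18-DZ at 37.2 CPM, and LAMB2 highest of the late in E28-DZ at 4.48 CPM.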

How the results depend on the processing

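Counts here are of members called. Over single members called in a comparison and all alternatives, 3252 of 3707 values kept their direction and their side of the threshold, 454 lost the call with the same direction and 1 reversed, FN1 in sclerotome-like cells, at -0.11 on the log2 scale without E21-ZZ (up to 0.68 when another library was left out). The cause was not tested. Late against early in whole libraries, 24 members were called by an F test with the 4 stages as levels, a test unlike that of 2 groups. Without both E16 libraries 3 were called and without both E28 libraries 10, and the reason was not tested. The share of all genes called is not given for the alternatives here, so nothing is read from the counts of members. Leaving out each library in turn gave 8 to 13 late against early in whole libraries, 1 to 2 in somite progenitor-like and 7 to 12 in chondrocyte-like cells. Against other cells it gave 8 to 13 in somite progenitor-like, 9 to 17 in myoblast-like, 1 to 3 in sclerotome-like, 5 to 10 in chondrocyte-like, 9 to 17 in glia-like and 5 to 8 in lateral mesoderm-like cells. With DESeq2, 7 were called in somite progenitor-like and 0 in sclerotome-like cells against other cells. With all genes of at least 1 UMI tested, 21 were called late against early in fibroblast-like cells, 4 in sclerotome-like cells against other cells and 5 in myoblast-like against somite progenitor-like cells, where 4 were called with no doublets removed and 5 with a gate of at least 2 markers. A gate of at least 4 markers gave 6 late against early in chondrocyte-like and 6 in lateral mesoderm-like cells against other cells. Low counts limit LAMA3, ITGB7, ITGB6, ITGB2 and LAMB3 most. The laminin shares of LAMA1 and LAMA4 kept their calls in all 10 alternatives, which include leaving out each library. They mirror each other and are 1 result. No paired analysis was possible by replicate number because every library has the number 1. Classes were paired within libraries, and breeds within stages, in the tests themselves.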
